A study of Homo sapiens with 6 samples.

Results

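The 76 genes described here belong to enzyme families that place or remove chemical groups on histones, though some members act mainly on other substrates. They are the entries, of 26485 in the deposited table, whose symbol is KDM, KMT, SETD, HDAC, SIRT, KAT, PRMT, EHMT, SUV, NSD or EZH followed by a number and, in some, further letters or numbers. By textbook role 39 were taken as writers, which add methyl or acetyl groups, and 37 as erasers, which remove them. The symbol rule uses no measured value. It leaves out enzymes named otherwise, such as EP300 and CARM1, which are given as a separate list below.

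Expression was measured by RNA sequencing in REH, an established human cell line from precursor B acute lymphoblastic leukemia. The cells were given 25 µM ML141, an inhibitor of the GTPase CDC42, or its solvent DMSO for 24 h. Each treatment had 3 libraries, which the series describes as independent experiments. Both groups were the same line in the same medium with serum and antibiotics, so the treatment is the only labelled difference, and no untreated group was analysed here. The data are from 1 cell line at 1 dose and 1 time.

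Histone methylation is written by SET-domain enzymes on lysine and by PRMT enzymes on arginine, with S-adenosylmethionine as the methyl donor, and is erased by flavin-dependent demethylases (the KDM1 enzymes) and by iron- and 2-oxoglutarate-dependent JmjC demethylases. Acetylation is written by lysine acetyltransferases from acetyl-CoA and erased by zinc-dependent HDACs and NAD-dependent sirtuins. The effect of a mark depends on the residue: methylation of H3K4 and acetylation are found at active genes, and methylation of H3K9 and H3K27 at repressed ones. In B-cell leukemia several of these genes are mutated or rearranged, among them KMT2A and CREBBP.

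Total counts were 8284299 to 12308039 per library, at which 1 count stood for 0.0754 to 0.130 CPM, the unit used below for a level in 1 library (counts scaled to TMM library sizes). Markers of precursor B cells were present, with summed levels of 7450 to 8146 CPM of library totals in DMSO and 10659 to 10959 CPM in ML141. Those of T cells summed to 1.26 to 2.95 and 1.44 to 2.85 CPM, those of erythroid cells and megakaryocytes to at most 0.487 CPM, with HBA1, HBB and PF4 at 0. Stromal markers summed to 38.3 to 43.5 and 35.5 to 44.8 CPM, with COL3A1 and LUM at 0. Myeloid markers, of which MPO made up most, summed to 45.7 to 48.0 CPM in DMSO and 35.3 to 38.8 CPM in ML141. A list of 22 replication and cell cycle genes was written with earlier results of these data known. All 22 fell with ML141 (21 with upper-quartile factors and 21 with library totals), where 27.7% of all genes tested were lower. Their medians relative to DMSO were -1.89 in ML141 replicate 1 against -1.32 and -1.32 on the log2 scale in replicates 2 and 3.

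Of the 76 genes 71 had enough counts to be tested, 36 writers and 35 erasers. With ML141 24 of them were higher and 17 lower at an adjusted p of 0.05 by edgeR's quasi-likelihood test, 41 or 57.7% of those tested, where 54.4% of all 11454 genes tested changed, 26.7% higher and 27.7% lower. The share of changed members was thus near that of genes at large. In 44 members all ML141 libraries lay on one side of all DMSO libraries, 25 above and 19 below, as did 61.2% of all genes tested, 30.5% above and 30.7% below. By direction the counts of the sides were not alike. Of the erasers 17 were higher and 6 lower, with a median log2 fold change of 0.30. The 17 include HDAC11, which was tested only through the group where it is high and is not read as support. Of the writers 7 were higher and 11 lower, with a median of -0.021, against 0.017 over all genes tested. This difference between the sides was described by counts and medians and was not tested.

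The pattern was seen in each ML141 library. Relative to the DMSO mean the median eraser stood at 0.21, 0.37 and 0.32 on the log2 scale in ML141 replicates 1, 2 and 3, and the median writer at -0.10, 0.025 and -0.067. In the DMSO libraries both medians lay between -0.034 and 0.034. All 3 ML141 libraries had erasers above writers. This order held in each of them for the methyl enzymes, with demethylases at 0.38, 0.39 and 0.47 and methyltransferases at -0.13, -0.015 and -0.13. For the acetyl enzymes it did not. Deacetylases, sirtuins included, stood at 0.079, 0.33 and 0.27, and acetyltransferases at 0.17, 0.12 and 0.027. In ML141 replicate 1 the acetyl order was thus the reverse. The calls for writers were the less stable: 7 were higher with all libraries, against 4 without DMSO replicate 1, 4 without DMSO replicate 2 and 4 without DMSO replicate 3. Scaling also mattered. Upper-quartile factors and library totals, which shift the median of all genes up by 0.10 and 0.17, gave 11 writers higher and 9 lower, and 13 higher and 8 lower, against 18 and 5, and 21 and 5, for erasers. Genes at large shifted as well: of all changed genes 49.1% were higher with TMM factors, 59.5% with upper-quartile factors and 66.1% with library totals. Of changed writers 38.9%, 55.0% and 61.9% were higher, and of changed erasers 73.9%, 78.3% and 80.8%. Erasers thus stood above all genes under each of these 3 scalings. Writers stood below all genes with TMM factors but near them with upper-quartile factors and library totals. Most changes were small. Of the 71 members 18 passed the test with more than 1.5-fold and 5 with more than 2-fold, where 31.0% and 13.0% of all genes did.

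**Figure D1:**
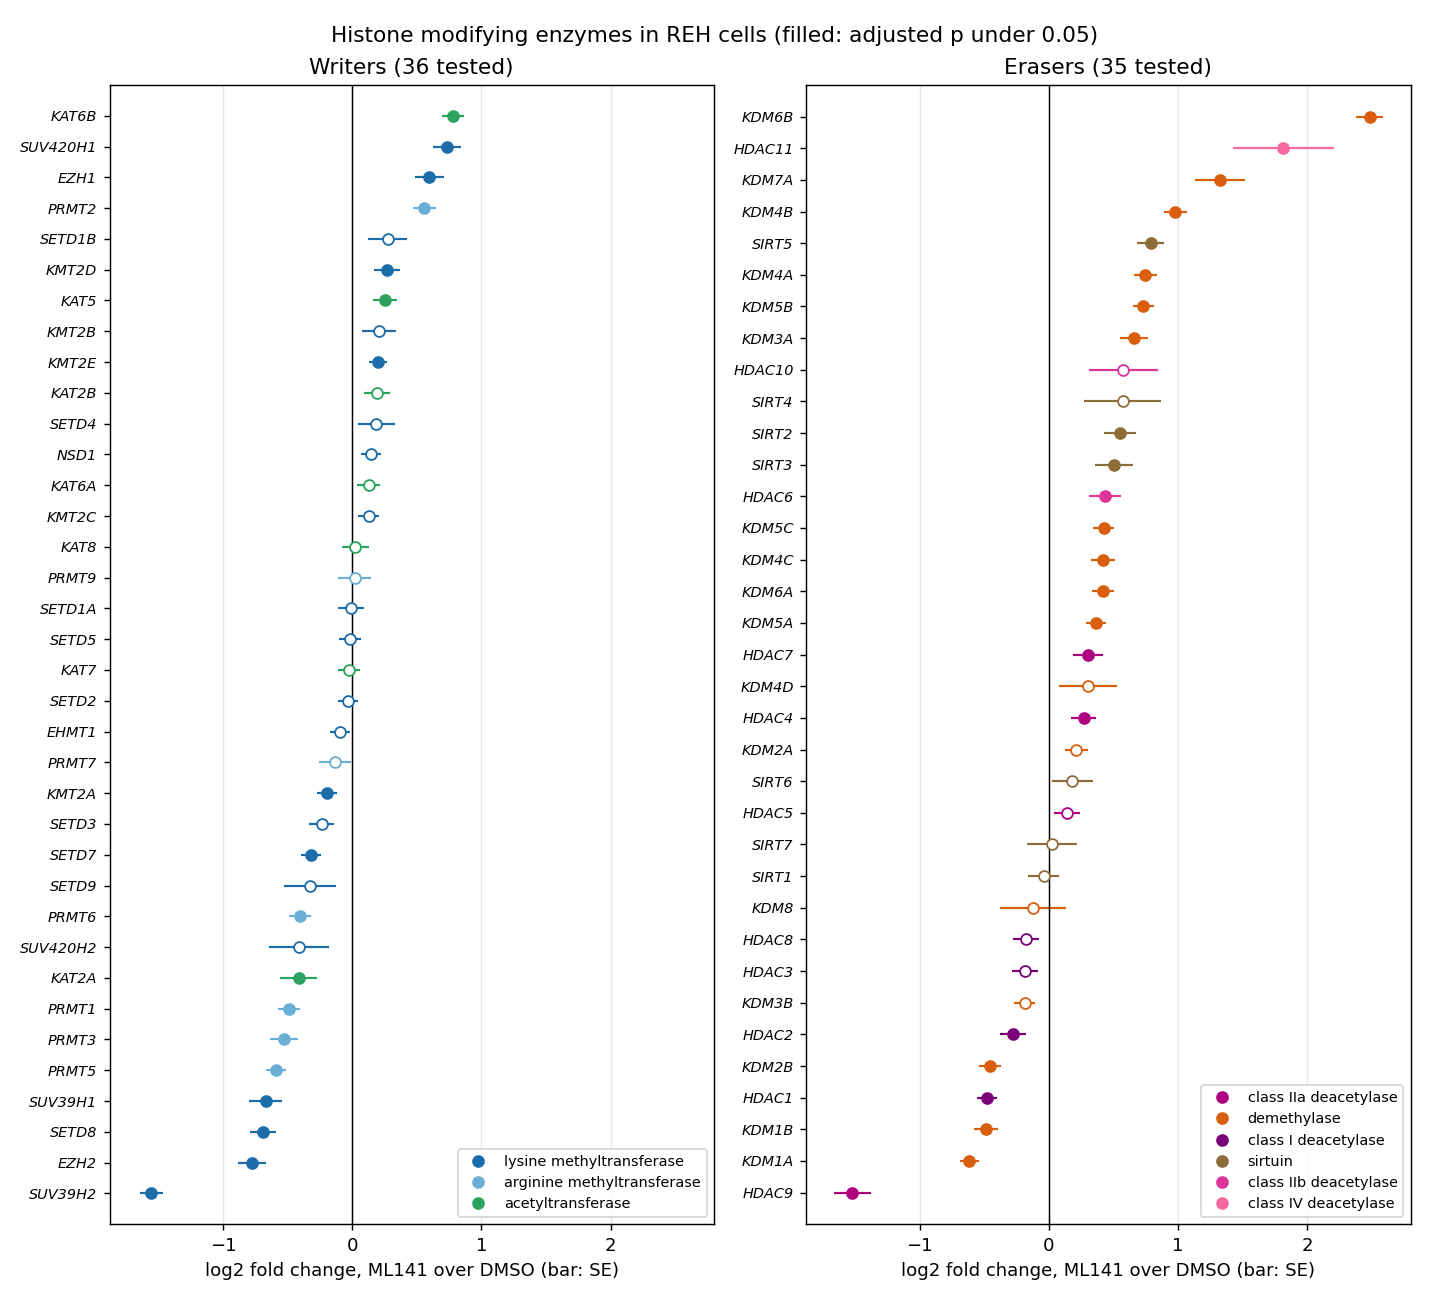
Log2 fold change (x axis, ML141 over DMSO, bars are SE, n = 3 per group) of the 36 writers and 35 erasers tested, sorted, with filled symbols for an adjusted p under 0.05. The demethylase KDM6B is at the top at 2.48 (SE 0.103), and the methyltransferase SUV39H2 and the deacetylase HDAC9 are at the bottom.

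**Figure D2:**
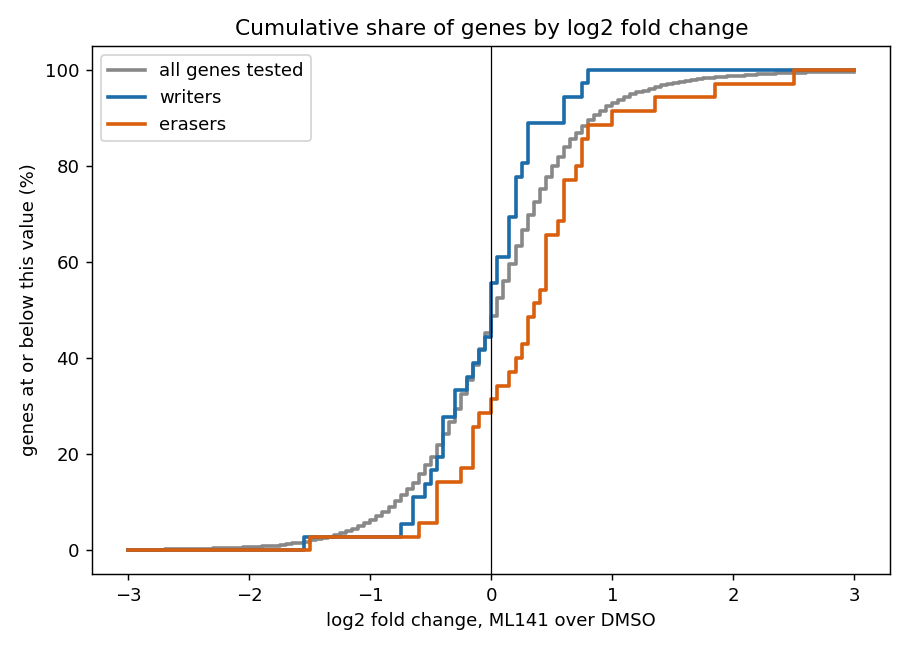
Cumulative share of genes (y axis, percent) at or below each log2 fold change (x axis) for all 11454 genes tested, the 36 writers and the 35 erasers. Over most of its range the curve of erasers lies to the right of that of writers, with medians of 0.30 and -0.021.

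Levels of different genes were compared per length (RPKM, CPM per kilobase of annotated exon). In DMSO the highest was KDM1A, the flavin-dependent H3K4 demethylase of the CoREST complex, at 199 ± 10.9 RPKM (SD, n = 3), then HDAC1, a catalytic subunit of the SIN3, NuRD and CoREST complexes, at 123 ± 6.68. The arginine methyltransferase PRMT5 followed at 93.8 ± 4.60 and EZH2, the catalytic subunit of Polycomb complex PRC2, at 88.8 ± 6.60, a pair that did not differ beyond their spread. These 4 kept the first 4 places with ML141, each at a lower level. By rank among the 71 tested members SUV39H2 went from place 10 in DMSO to 45 in ML141 and KDM6B from 62 to 23. The lowest tested member in DMSO was HDAC11 at 0.243 ± 0.122 RPKM. Over the tested writers the median level was 14.2 RPKM in DMSO and 13.2 in ML141, and over the tested erasers 9.81 and 13.2, with exon lengths from an annotation that may not be the one used for counting.

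**Figure D3:**
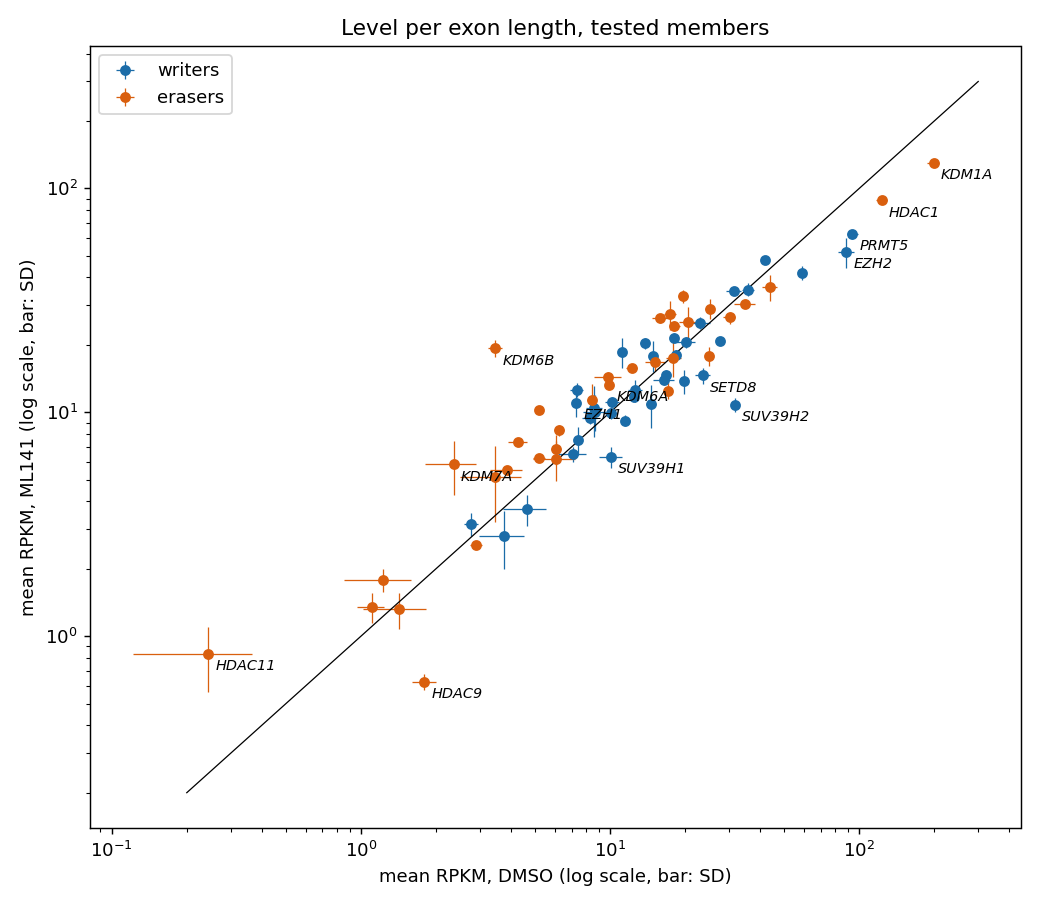
Mean RPKM in ML141 (y axis) against DMSO (x axis), both log scales, for 71 members with SD bars (n = 3), writers in blue and erasers in orange, and a line where both are equal. KDM6B stands above the line, at 3.46 RPKM in DMSO and 19.3 in ML141, and SUV39H2 below it, at 31.6 and 10.8.

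H3K27 methylation is written by PRC2 with EZH2 or its paralog EZH1 as the catalytic subunit, and erased by KDM6A (UTX) and KDM6B (JMJD3). EZH2 prevails in dividing cells and EZH1 in resting ones. EZH2 (chromosome 7, 148807383 to 148884321) was at 251, 291 and 273 CPM with DMSO and 133, 162 and 181 CPM with ML141. All ML141 libraries were below all DMSO libraries, with a log2 fold change of -0.78 (edgeR adjusted p = 9.92e-05, SE 0.109). EZH1 (chromosome 17, 42700275 to 42745049) was at 34.1, 34.2 and 33.4 CPM with DMSO and 45.6, 58.9 and 49.2 CPM with ML141, a rise of 0.60 (edgeR adjusted p = 8.79e-04, SE 0.114) on the log2 scale. The groups did not overlap for either paralog, and they moved in opposite directions. The ratio of EZH2 to EZH1 per length was 11.2, 12.9 and 12.4 with DMSO and 4.42, 4.18 and 5.58 with ML141, so EZH2 stayed the more abundant paralog in every library. A ratio within a library does not depend on the scaling, but in bulk RNA a change in the share of cells with a gene on and a change in RNA per cell cannot be told apart.

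The promoters of this pair, which moved apart, are shown with that of SUV39H2, the methyltransferase gene with the largest fall; they were chosen after the values were seen. Each stretch runs from 120 bases before the RefSeq start site (GRCh38.p14) to the base before it, or for SUV39H2 to 17 bases before it (written 5′ to 3′ along the gene's strand). Capitals mark matches on either strand to any of the motifs searched, and no 2 matches in these stretches overlap. GENCODE 29 starts these genes a little earlier, so the last 30, 9 and 30 bases printed for EZH2, EZH1 and SUV39H2 lie within its gene bounds.
EZH2 (chr7:148884292-148884411, minus strand): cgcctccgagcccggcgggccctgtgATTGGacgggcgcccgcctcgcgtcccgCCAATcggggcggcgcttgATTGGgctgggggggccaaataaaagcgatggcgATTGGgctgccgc
EZH1 (chr17:42745041-42745160, minus strand): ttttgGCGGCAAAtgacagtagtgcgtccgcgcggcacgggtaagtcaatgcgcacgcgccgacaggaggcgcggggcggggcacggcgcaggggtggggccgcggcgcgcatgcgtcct
SUV39H2 (chr10:14878746-14878849, plus strand): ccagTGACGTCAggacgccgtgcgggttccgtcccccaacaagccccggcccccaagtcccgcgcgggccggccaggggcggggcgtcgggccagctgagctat
The EZH2 stretch holds 4 matches to the CCAAT box, the letters CCAAT, and 0.991% of the 35116 promoters in the table hold at least 4 in their 300 bases. KDM4B, which was higher with ML141, also has 4 in its window. Whether the number of matches goes with a direction was not tested. The EZH1 stretch holds 1 match to an E2F motif (TTTCCCGC, TTTCGCGC, TTTGCCGC or TTTGGCGC) and the SUV39H2 stretch 1 match to the cyclic AMP response element TGACGTCA, which 3.31% and 1.85% of all promoters have. In the 300-base windows, which reach 50 bases past the start site, a CCAAT box was found in 7 of 17 members that were lower, 6 of 24 that were higher and 7 of 25 that were not called, against 34.6% of all promoters. An E2F motif was found in 2 of 17, 1 of 24 and 1 of 25, and the 2 lower members with one were EZH2 and KDM1B. The CHR element TTTGAA was found in 7 of the 70 members with a promoter in the table and the ATF4 composite TGATGNAA in 0, against 15.2% and 3.62% of all promoters. A match is a string of letters and no evidence of binding.

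Both H3K27 demethylase genes rose. KDM6B (chromosome 17, 7839904 to 7854796), an inducible gene, was at 23.3, 24.6 and 21.7 CPM with DMSO and 135, 136 and 117 CPM with ML141. Its lowest ML141 library stood far above its highest DMSO library, and its rise of 2.48 (edgeR adjusted p = 3.09e-08, SE 0.103) was the largest of all members. KDM6A (chromosome X, 44873177 to 45112602) was at 56.3, 60.4 and 59.2 CPM with DMSO and 77.4, 76.2 and 81.3 CPM with ML141, a rise of 0.42 (edgeR adjusted p = 0.00152, SE 0.0861) with no overlap of groups. The ratio of KDM6A to KDM6B per length was 2.73, 2.79 and 3.09 with DMSO and 0.648, 0.632 and 0.786 with ML141, so the order of the pair turned over.

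**Figure D4:**
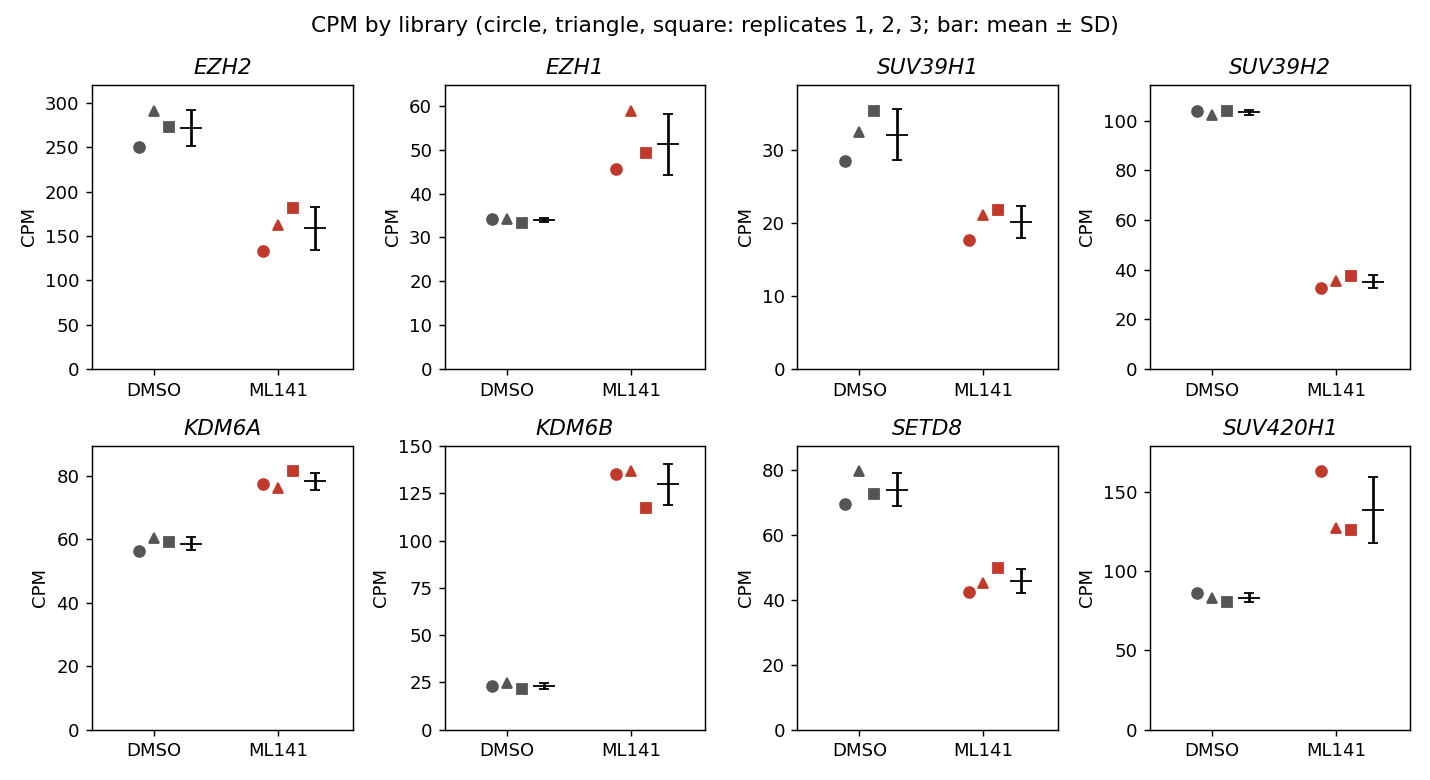
CPM (y axis, from 0) in each DMSO and ML141 library for 8 members, with mean and SD (n = 3) beside the points. EZH2, SUV39H1, SUV39H2 and SETD8 are lower in all 3 ML141 libraries, and EZH1, KDM6A, KDM6B and SUV420H1 are higher.

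H3K9 methylation, the mark of heterochromatin, is written by SUV39H1 and SUV39H2 in silent repeats and by EHMT1 and EHMT2 elsewhere. SUV39H2 (chromosome 10, 14878820 to 14904315) was at 104, 102 and 104 CPM with DMSO and 32.5, 35.5 and 37.5 CPM with ML141, a fall by 1.55 on the log2 scale (edgeR adjusted p = 1.93e-07, SE 0.0913). It was the largest fall among the members. SUV39H1 was at 28.5, 32.4 and 35.4 CPM with DMSO and 17.7, 21.1 and 21.7 CPM with ML141, a log2 fold change of -0.67 (edgeR adjusted p = 8.81e-04, SE 0.128), where 21.5% of its exon bases overlap AC231533.1 on the opposite strand. The ratio of SUV39H2 to SUV39H1 per length was 3.56, 3.07 and 2.87 with DMSO and 1.79, 1.64 and 1.68 with ML141, so SUV39H2 stayed the more abundant of the pair in every library. EHMT1 was at 131, 136 and 141 CPM with DMSO and 124, 134 and 124 CPM with ML141, groups that overlapped, and its log2 fold change of -0.09 (edgeR adjusted p = 0.34, SE 0.0781) was not past the test and changed sign with upper-quartile factors (0.010) and library totals (0.082). EHMT2 (chromosome 6, 31879759 to 31897687) had 0 counts in all 6 libraries. Around it the table is unusual: of 66 protein-coding genes within 500 kb on either side 41, or 62.1%, had no count in any library, against 31.1% on chromosome 6 and 27.1% in the genome. The 0 of EHMT2 is therefore given as listed and not read as a level, and why the region is at 0 was not tested.

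The erasers of H3K9 methylation were higher in 5 of 7 tested cases and lower in 0, also with upper-quartile factors and library totals. Among all genes tested 26.7% were higher and 27.7% lower. The median log2 fold change of these 7 erasers was 0.66. KDM7A, which also acts on H3K27, was at 27.4, 20.4 and 17.6 CPM with DMSO and 71.0, 47.6 and 44.1 CPM with ML141, and rose by 1.32 (edgeR adjusted p = 1.45e-04, SE 0.196). ML141 replicate 1 stood above the other two, and none overlapped DMSO. KDM4B was at 38.1, 37.6 and 39.6 CPM with DMSO and 75.9, 78.0 and 73.7 CPM with ML141, a rise of 0.98 (edgeR adjusted p = 3.70e-06, SE 0.0894). KDM4A was at 89.3, 91.5 and 83.4 CPM with DMSO and 154, 153 and 137 CPM with ML141, a rise of 0.75 (edgeR adjusted p = 1.95e-05, SE 0.0854). The KDM4 enzymes remove methyl groups from H3K9 and H3K36. KDM4C rose by 0.42 (SE 0.0953) and KDM4D, at under 5 CPM, had 0.30 (SE 0.224), which was not past the test. KDM3A, a target of hypoxia-inducible factors, was at 90.0, 92.0 and 82.9 CPM with DMSO and 161, 119 and 138 CPM with ML141, a rise of 0.66 (edgeR adjusted p = 3.35e-04, SE 0.109), and its paralog KDM3B had -0.19 (edgeR adjusted p = 0.0726, SE 0.0818), which missed the threshold with groups that did not overlap. Of KDM4A's exon bases 46.4% are also annotated to AL451062.3 on the same strand and 9.50% to KDM4A-AS1 on the other, so its value is less certain.

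H3K4 methylation is written by the KMT2 and SETD1 enzymes in COMPASS complexes and by SETD7. The 7 tested writers had small log2 fold changes, from -0.32 to 0.28. SETD7 had -0.32 (SE 0.0796) and KMT2A -0.20 (SE 0.0765), both lower, and KMT2D, 0.27 (SE 0.103), was higher, while KMT2B, KMT2C, SETD1A and SETD1B did not pass. With library totals 4 were higher and 0 lower, where 66.1% of all changed genes were higher. The calls of KMT2A and SETD7 were lost there (adjusted p = 0.81 and 0.123), the former also with upper-quartile factors, with either other filter on low counts, and without DMSO replicate 1, 2 or 3 or ML141 replicate 3. Of KMT2A's exon bases 22.0% are shared with AP001267.5 on the same strand. The call of KMT2D was lost without DMSO replicate 1, 2 or 3 or ML141 replicate 2 (up to 0.141). The erasers of H3K4 methylation moved in both directions. KDM1A (chromosome 1, 23019443 to 23083689) was at 637, 645 and 582 CPM with DMSO and 407, 412 and 397 CPM with ML141, a fall with a log2 fold change of -0.62 (edgeR adjusted p = 3.57e-05, SE 0.0758). KDM1B, its paralog, was at 116, 111 and 119 CPM with DMSO and 72.9, 86.2 and 87.4 CPM with ML141, at -0.49 (edgeR adjusted p = 8.79e-04, SE 0.0926). Both flavin-dependent enzymes were lower in every ML141 library than in any DMSO library. In contrast all 3 tested KDM5 genes, of the JmjC type, were higher. KDM5B was at 235, 227 and 204 CPM with DMSO and 387, 352 and 367 CPM with ML141, a rise of 0.73 (edgeR adjusted p = 1.69e-05, SE 0.082), KDM5C rose by 0.42 (SE 0.081) and KDM5A by 0.37 (SE 0.0782). These 5 directions held with upper-quartile factors and library totals.

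H4K20 methylation is started by SETD8 (KMT5A), whose protein accumulates in G2 and mitosis, and carried further by SUV420H1 and SUV420H2 (KMT5B and KMT5C). SETD8 was at 69.6, 79.5 and 72.7 CPM with DMSO and 42.5, 45.2 and 49.9 CPM with ML141, a log2 fold change of -0.69 (edgeR adjusted p = 1.18e-04, SE 0.0995). SUV420H1 was at 86.1, 83.4 and 80.6 CPM with DMSO and 163, 127 and 126 CPM with ML141, a rise of 0.73 (edgeR adjusted p = 1.25e-04, SE 0.107), highest in ML141 replicate 1. The groups did not overlap for either gene, and SUV420H2, at under 11 CPM in every library, had -0.41 (edgeR adjusted p = 0.15, SE 0.23), not past the test. The ratio of SUV420H1 to SETD8 per length was 0.521, 0.442 and 0.467 with DMSO and 1.61, 1.18 and 1.07 with ML141. For H3K36, the writers SETD2 and NSD1 had -0.03 (SE 0.0779) and 0.15 (SE 0.0796) and were not past the test, although NSD1 was with upper-quartile factors and library totals. Of the H3K36 erasers KDM2B was at 128, 124 and 122 CPM with DMSO and 84.4, 98.9 and 89.4 CPM with ML141, a fall with -0.45 (edgeR adjusted p = 8.73e-04, SE 0.0864), and KDM2A, at 0.21 (edgeR adjusted p = 0.0577, SE 0.0876), missed the threshold with groups that did not overlap. KDM2A passed it with upper-quartile factors, library totals, either other filter on low counts or the replicate block, and without ML141 replicate 1.

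Arginine methyltransferases were lower in 4 of 7 tested cases and higher in 1, with a median of -0.40. These counts were the same under upper-quartile factors and library totals. Their changed share was 71.4%, against 54.4% of all genes tested, of which 26.7% were higher and 27.7% lower. PRMT5, which makes symmetric dimethylarginine on histones and spliceosome proteins, was at 236, 259 and 241 CPM with DMSO and 171, 161 and 158 CPM with ML141, at -0.59 (edgeR adjusted p = 5.97e-05, SE 0.0776). PRMT1, the main source of asymmetric dimethylarginine, was at 109.6, 114 and 113 CPM with DMSO and 84.0, 82.7 and 73.2 CPM with ML141, at -0.49 (edgeR adjusted p = 5.22e-04, SE 0.0862). PRMT3, which acts on a ribosomal protein, was at 52.2, 53.9 and 51.6 CPM with DMSO and 41.5, 35.4 and 32.8 CPM with ML141, at -0.53 (edgeR adjusted p = 0.00152, SE 0.109). PRMT6 fell with -0.40 (SE 0.0845). In all 4 the ML141 libraries were below the DMSO libraries. PRMT2 went the other way, at 64.6, 62.5 and 68.1 CPM with DMSO and 97.9, 99.8 and 89.8 CPM with ML141, a rise of 0.56 (edgeR adjusted p = 2.17e-04, SE 0.0874). PRMT7 and PRMT9 did not pass, at -0.13 (SE 0.124) and 0.02 (SE 0.125). Of the exon bases of PRMT5 34.8% overlap PRMT5-AS1 on the opposite strand, and a kit that does not mark strand cannot tell them apart.

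Among 7 acetyltransferases 2 were higher and 1 lower, against 4 and 0 with upper-quartile factors and with library totals. The first counts make a changed share of 42.9%, against 54.4% of all genes tested. KAT6B, of the MOZ/MORF complex, was at 121, 115 and 107 CPM with DMSO and 205, 203 and 179 CPM with ML141, a rise of 0.78 (edgeR adjusted p = 1.56e-05, SE 0.0867), while its paralog KAT6A had 0.13 (SE 0.0885) and was not past the test. KAT5 (TIP60) rose by 0.26 (SE 0.0933) and KAT2A (GCN5) fell with -0.42 (SE 0.141). The KAT2A call was lost with both of these scalings and without DMSO replicate 1, 2 or 3 or ML141 replicate 3, with an adjusted p of up to 0.193. The KAT5 call was lost without DMSO replicate 1, 2 or 3 or ML141 replicate 1 or 3, with up to 0.102. KAT2B, KAT7 and KAT8 had 0.19 (SE 0.102), -0.02 (SE 0.0868) and 0.02 (SE 0.104), none past the test. Of KAT5's exon bases 32.2% overlap RNASEH2C on the opposite strand, and of KAT2A's 13.0% are shared with AC099811.2 on the same strand.

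Deacetylases are grouped by class. All 4 class I genes, the nuclear HDACs, had log2 fold changes below 0, and 2 passed the test (1 with upper-quartile factors and 1 with library totals). Among all genes tested 27.7% were lower. HDAC1 was at 265, 273 and 245 CPM with DMSO and 182, 192 and 188 CPM with ML141, at -0.48 (edgeR adjusted p = 2.56e-04, SE 0.0764), with no overlap. HDAC2 was at 474, 443 and 413 CPM with DMSO and 421, 326 and 352 CPM with ML141, groups that overlapped, at -0.28 (edgeR adjusted p = 0.0351, SE 0.1). The HDAC2 call was lost with library totals (-0.10, adjusted p = 0.336), with upper-quartile factors (0.102), and without DMSO replicate 1 (0.132), DMSO replicate 2 (0.0919), ML141 replicate 2 (0.0983) or ML141 replicate 3 (0.113). HDAC3 was at 60.3, 71.1 and 72.2 CPM with DMSO and 57.1, 61.5 and 60.6 CPM with ML141, with overlap, at -0.19 (edgeR adjusted p = 0.128, SE 0.098), and passed the test only without DMSO replicate 1 (adjusted p = 0.0493) among the alternatives run. HDAC8 was at 33.7, 34.1 and 30.7 CPM with DMSO and 29.3, 28.7 and 29.1 CPM with ML141. Its groups did not overlap, but it did not pass, at -0.18 (edgeR adjusted p = 0.167, SE 0.103). Of HDAC8's exon bases 10.5% are shared with AL133500.1 on the same strand.

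The class IIa genes, whose proteins shuttle between nucleus and cytoplasm and bind MEF2 factors, were split. HDAC9 (chromosome 7, 18086949 to 19002416) was at 21.4, 26.4 and 22.6 CPM with DMSO and 7.50, 8.14 and 8.85 CPM with ML141, a log2 fold change of -1.52 (edgeR adjusted p = 4.61e-06, SE 0.143), the largest fall of an eraser. HDAC4 and HDAC7 were slightly higher, at 0.27 (SE 0.0938) and 0.30 (SE 0.117), and HDAC5 at 0.14 (SE 0.101) did not pass. The call of HDAC4 was lost without DMSO replicate 1 or 2 or ML141 replicate 2 or 3 (adjusted p up to 0.127), and that of HDAC7 without any one of DMSO replicates 1, 2 and 3 or ML141 replicates 2 and 3, and with limma-voom (up to 0.164). Of class IIb, HDAC6, a tubulin deacetylase, rose by 0.43 (SE 0.123), and HDAC10, at 0.58 (SE 0.266), did not pass. HDAC10 was called higher with library totals, with no filter on low counts, with the replicate block and without ML141 replicate 1. HDAC11, the class IV gene, rests on few counts, 10, 7 and 5 with DMSO and 41, 37 and 23 with ML141, and rose by 1.81 (edgeR adjusted p = 0.00194, SE 0.389). Only with ML141 did every library reach the minimum count of 10, so HDAC11 was tested only through the group where it is high. Its call, 1 of the 17 higher erasers, is therefore given as listed and not read as support. It was named after its values were seen.

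Of the 7 sirtuins 3 were higher and 0 lower, and 4 and 0 with library totals. The changed share with TMM factors was 42.9%, against 54.4% of all genes tested, of which 26.7% were higher and 27.7% lower. SIRT5, a mitochondrial enzyme that removes succinyl and malonyl groups, was at 27.6, 23.3 and 24.5 CPM with DMSO and 43.4, 42.7 and 43.8 CPM with ML141, a rise of 0.79 (edgeR adjusted p = 6.96e-05, SE 0.106). SIRT2, which is mostly cytoplasmic, was at 18.4, 20.6 and 23.6 CPM with DMSO and 31.2, 31.9 and 29.1 CPM with ML141, a rise of 0.55 (edgeR adjusted p = 0.00239, SE 0.122). SIRT3, the main mitochondrial deacetylase, rose by 0.51 (SE 0.148). The nuclear SIRT1, SIRT6 and SIRT7 did not pass, at -0.04 (SE 0.121), 0.18 (SE 0.159) and 0.03 (SE 0.192), and SIRT4 at 0.57 (SE 0.297) did not pass. Of SIRT5's exon bases 17.8% overlap AL441883.1 on the opposite strand.

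The remaining members have no settled histone mark. KMT2E rose by 0.20 (SE 0.0707), a call lost without DMSO replicate 1, 2 or 3 or ML141 replicate 3 (adjusted p up to 0.0985). The actin histidine methyltransferase SETD3 and SETD4, SETD5, SETD9 and KDM8 did not pass, with log2 fold changes from -0.33 to 0.19. Leaving out the members best known for other substrates kept 6 writers higher and 10 lower of 29, and 14 erasers higher and 6 lower of 29. Besides EHMT2, 4 members were not tested. KDM4E and KDM5D had 0 counts in all libraries, PRMT8 had 1 count and SETD6 15 in all (7 with DMSO and 8 with ML141), so no change could be tested in these 4. For EZH2, SETD8, PRMT1 and PRMT5 the annotation lists 1 pseudogene copy each and for HDAC1 2, none in the deposited table under those names, so reads could be shared with these copies.

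Histone modifiers outside the symbol rule were listed by role. Of 31 other writers 9 were higher and 9 lower, with a median of 0.019 (12 and 7 with library totals). The share changed was 58.1%, and 57.1% for the other erasers given below, near the 54.4% of all genes tested. CREBBP, an acetyltransferase often mutated in relapsed leukemia, rose from 261 ± 12.1 to 443 ± 18.2 CPM (SD over 3 libraries; 0.76 (SE 0.0763) on the log2 scale), and NCOA1 by 0.90 (SE 0.0862). HAT1, which acetylates new histone H4 before it enters chromatin, fell from 212 ± 6.30 to 90.4 ± 15.0 CPM, -1.23 (SE 0.112), and GTF3C4 with -0.75 (SE 0.0837). Of 7 other erasers 2 were higher and 2 lower, with JMJD1C at 0.75 (SE 0.096) and JMJD6 at -0.40 (SE 0.116), against 4 and 0 with library totals.

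Subunits of the complexes these enzymes work in were counted as well. The share changed was 57.9% for COMPASS and PRC2, 56.7% for acetyltransferase complexes and 58.6% for deacetylase complexes. Each was near the 54.4% of all genes tested, of which 26.7% were higher and 27.7% lower. Of 19 COMPASS and PRC2 subunits 1 was higher and 10 lower (2 and 8 with library totals), with a median of -0.30. EED, the PRC2 subunit that binds methylated H3K27, fell from 79.7 ± 0.790 to 36.3 ± 3.29 CPM, -1.13 (SE 0.0973), and RBBP7, a histone-binding subunit shared by several complexes, with -1.04 (SE 0.076), whereas JARID2, a PRC2 accessory subunit, rose by 0.55 (SE 0.0868). Of 30 acetyltransferase complex subunits 11 were higher and 6 lower, with ING4 at 1.00 (SE 0.112) and JADE1 at -0.53 (SE 0.0784) the genes of smallest p in each direction, against 17 and 3 with library totals. Of 29 deacetylase complex subunits 11 were higher and 6 lower, against 15 and 3 with library totals. Genes at large shifted too: 66.1% of all changed genes were higher with library totals, against 49.1% with TMM factors. PHF21A, a CoREST subunit that reads unmethylated H3K4, rose from 60.7 ± 2.64 to 132 ± 3.88 CPM, 1.12 (SE 0.0827), and SAP130 fell with -0.62 (SE 0.0974). Of 18 tested enzymes that supply the co-substrates 5 were higher and 8 lower, a changed share of 72.2%. AHCY, which clears S-adenosylhomocysteine, and ACLY, which makes acetyl-CoA, fell with -1.09 (SE 0.0815) and -1.07 (SE 0.0815), and the NAD pathway genes NMRK1 and NMNAT1 rose by 1.79 (SE 0.207) and 0.77 (SE 0.135).

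The replication and cell cycle genes fell in the same libraries in which EZH2, SUV39H1, SUV39H2, SETD8, HAT1 and EED were lower. PCNA fell from 663 ± 44.5 to 148 ± 15.5 CPM, -2.16 (SE 0.0962). Of 13 tested precursor B cell markers 9 were higher and 1 lower, where 26.7% and 27.7% of all genes tested were. MPO was lower. The part of these lists in the levels of the enzymes was not tested. In the authors' deposited table, 23 of the 71 members with an adjusted p were higher and 17 lower at 0.05. Of the 41 members called here 32 were called in the same direction under each of the 14 alternatives that tested them, 15 erasers and 4 writers higher and 5 erasers and 8 writers lower. The 15 include HDAC11, which the stricter filter on low counts left untested.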

How the data were processed

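TruSeq RNA v2 libraries (Illumina) were made from total RNA of REH cells, 3 with DMSO and 3 with ML141, as the labels' protocols state. Groups and replicate numbers came from the sample titles and columns were matched through the sample descriptions. The deposited counts are whole numbers for each gene symbol and library. The submitters' processing notes name DESeq2, featureCounts, Picard, Bowtie2, Trimmomatic, bcl2fastq 2.19 and the build hg38. Their settings, the gene annotation and the strand setting are not stated in the sources used here. Also deposited were scores (counts divided by a size factor and rounded by the authors), a mean normalized signal, and the fold ratio, log2 fold change and p-value of the authors' own comparison, of which only the authors' calls were used, where named. The table's 28 date-form names stayed in the fit.

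Genes were kept with filterByExpr (minimum count 10, minimum total 15) and tested with edgeR 4.0.16 in R 4.3.3 (TMM, glmQLFit, glmQLFTest, with no covariate, 2-sided). P-values were adjusted by Benjamini-Hochberg across the 11454 genes tested, and genes under 0.05 were called. SE is the log2 fold change over the square root of F. Between libraries of a group the chi-square per degree of freedom was 2.98 to 19.6, above sampling noise, so none was counted as a duplicate. Per-library medians use log2 CPM with a prior count of 2. Positions, exon lengths and exon overlaps came from GENCODE 29 (GRCh38, basic set), which matched all 76 members, and promoters from RefSeq, which matched 70. SETD8, SUV420H1 and SUV420H2 were matched through older symbols.

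Per-library values are given for the 12 highest and 12 lowest changed members whose mean reached 5 CPM, and for the EZH, KDM6, EHMT, SUV39H and class I HDAC genes; the others are named so that each is accounted for. Members, lists and roles were chosen with earlier results of these data known. Alternatives were other scaling (DESeq2 size factors, upper-quartile factors, library totals), low-count filters, the DESeq2 1.42.0 Wald test, limma-voom (limma 3.58.1), a replicate block, leaving out each library, and leaving out members of other substrates. On simulated data for this comparison, 100 of 11454 genes changed by 2-fold and 100 by 1.5-fold, with rises and falls in equal number. There edgeR recovered 87% and 58%, and 7.05% of its calls were false, against 11.7% of those of DESeq2. In the data 54.4% of genes tested were called, so these shares may not hold for them. How calls depend on the scaling was not simulated.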

Additional observations from a re-analysis of the deposited data

How the results depend on the processing

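With upper-quartile factors 11 writers were higher and the median log2 fold changes of writers and erasers were 0.082 and 0.41. With library totals the count was 13 and the medians were 0.15 and 0.48. Both scalings moved the writer median above 0 from -0.021, and that of EHMT1 to 0.010 and 0.082. The median of all genes moved by 0.10 and 0.17 under them, so the gap between the sides was 0.32 with TMM, 0.33 with upper-quartile factors and 0.33 with library totals. Leaving out 1 library at a time gave 4 to 8 writers higher, 9 to 12 lower, 15 to 19 erasers higher and 5 or 6 lower. The medians were then -0.068 to 0.0084 for writers and 0.25 to 0.38 for erasers. Over all 71 tested members and 14 alternatives 44 calls were lost and 32 gained, and the stricter filter left HDAC11 untested. Of these the 29 members named by the rule, mostly the largest changes, had 6 lost (HDAC2) and 1 gained (HDAC3), and EHMT1 changed sign under 2 scalings. The cause was not tested. The replicate number as a block gave 27 members higher and 19 lower, and 6979 genes changed. It lost no member's call and gained those of HDAC10, KDM2A, KDM3B, SETD1B and SETD3. Same-numbered libraries had deviations that correlated at 0.374, 0.0847 and 0.178 for numbers 1, 2 and 3, and ML141 replicate 2 correlated best with DMSO replicate 3 (0.291). The library names also share a tag between same-numbered libraries, but no label says what it marks, so the fit without the block was kept. Low counts limit HDAC11, SIRT4, KDM4D, KDM8, PRMT8 and SETD6.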
